A study of Rattus norvegicus with 9 samples.

Results

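The proteasome is the protease complex that degrades proteins marked with ubiquitin. Its genes were taken as all probes whose platform symbol begins with Psm, then a letter from a to g, then a digit. The rule found 43 genes with 1 probe each, of 22523 probes on the bead array and of 13311 genes that the platform annotation names. Of these, 42 encode subunits, assembly factors or activators of the proteasome. The remaining gene, Psmc3ip, carries a similar symbol but encodes a partner of the meiotic recombination machinery, and it was undetected throughout.

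The samples were total RNA from the brain cortex of rats (Rattus norvegicus), labelled with biotin and hybridised to Illumina bead arrays in 9 samples of 1 array each. Animals had been kept at a simulated altitude of 7 km (3 samples), at a simulated altitude of 3 km (3 samples) or at simulated sea level with normal oxygen (3 samples). The comparisons ask which transcripts differ in the cortex under reduced oxygen, in a study about oxidative stress of hypoxic neurons. Strain, sex, age and length of exposure were not given in the sources used here, nor whether the 3 samples of a group came from separate animals, so the p-values measure the spread between samples, which may be technical.

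The catalytic core of the proteasome is a barrel of stacked rings, with alpha subunits outside and beta subunits inside, and Psmb5, Psmb6 and Psmb7 carry the proteolytic sites. A regulatory particle, made of a base with an ATPase ring and of a lid, binds ubiquitin chains, removes them and feeds the unfolded protein into the core. In cells exposed to interferon, Psmb8, Psmb9 and Psmb10 take the places of the 3 constitutive catalytic subunits. Proteasome genes are known to be transcribed together, under the transcription factor Nfe2l1 when proteolysis is impaired and in part under Nfe2l2 in oxidative stress. Both factors bind the antioxidant response element, whose core was searched as TGACNNNGC.

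All 43 genes were matched to the RefSeq table of the rat assembly GRCr8, and 39 of them had a promoter sequence from 250 bases before to 50 bases after the start site. On either strand, the antioxidant response element core was present in 8 of the 39 promoters (20.5%, against 12.2% of all 27457 promoters). These were the promoters of Psma3, Psmb2, Psmb5, Psmb6, Psmd1, Psmd3, Psmd9 and Psme4. The ETS core CCGGAAGT was present in 7 (17.9%, against 4.01%). The nuclear respiratory factor 1 site occurred in 6 (15.4%, against 4.71%), and the letters CCAAT in 18 (46.2%, against 37.7%). In Psmb2 the CCAAT match overlapped the antioxidant response element core, and no other pair of different motifs overlapped. The median GC content was 57% in these 39 promoters and 52.3% in all promoters. A match describes the letters only. The 3 beta subunit promoters that held the core are shown here, because Psmb5 and Psmb6 are catalytic and Psmb2 belongs to the same ring. Each is given as the 250 bases before the start site, 5′ to 3′ along the gene. Capitals mark the match to TGACNNNGC. Psmb2 lies at chr5:144254808-144255057 on the plus strand, Psmb5 at chr15:32047380-32047629 on the minus strand and Psmb6 at chr10:55737638-55737887 on the plus strand. The matches run from -68 to -60 in Psmb2, from -60 to -52 in Psmb5 and from -24 to -16 in Psmb6, counted from the start site. Only the first promoter listed for each gene was used, so a start site can differ from the annotated start of the gene. The annotated Psmb6 gene starts at chr10:55737852, so the end of its printed stretch, with the match, lies inside the gene.
Psmb2: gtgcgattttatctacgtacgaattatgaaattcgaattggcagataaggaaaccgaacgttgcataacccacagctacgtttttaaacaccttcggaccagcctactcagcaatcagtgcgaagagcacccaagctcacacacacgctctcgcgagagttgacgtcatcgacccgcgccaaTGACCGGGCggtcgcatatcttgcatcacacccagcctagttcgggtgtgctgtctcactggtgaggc
Psmb5: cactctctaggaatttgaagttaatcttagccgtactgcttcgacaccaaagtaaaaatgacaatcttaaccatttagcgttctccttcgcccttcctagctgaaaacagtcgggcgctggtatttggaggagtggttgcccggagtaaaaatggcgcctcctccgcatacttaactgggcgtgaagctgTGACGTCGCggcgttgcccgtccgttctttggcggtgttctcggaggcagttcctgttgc
Psmb6: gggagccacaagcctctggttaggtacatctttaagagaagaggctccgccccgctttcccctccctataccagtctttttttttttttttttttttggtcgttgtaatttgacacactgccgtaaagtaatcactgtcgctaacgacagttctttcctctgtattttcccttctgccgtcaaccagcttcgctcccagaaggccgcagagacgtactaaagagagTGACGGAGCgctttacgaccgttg

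The signal was above background (detection p-value below 0.05) on all 9 arrays for 32 of the 43 genes. Of the other 11 genes, Psmb8 was detected on 8 arrays, and Psmd5 and Psmg2 on 1 array, which was sea level replicate 3 for both. The remaining 8 genes were not above background on any array, namely Psma1, Psma3, Psma8, Psmb9, Psmb11, Psmc6, Psmd8 and Psmc3ip. In mammals Psma8 is known for its role in testis and Psmb11 for its role in thymus, whereas Psma1, Psma3, Psmc6 and Psmd8 are constitutive subunits, so their probes gave no usable measurement. Testing was limited to the 33 genes detected on at least 3 arrays. Psmd14, the deubiquitinase of the lid, and Psmd10, Psmg3, Psmg4, Psme3 and Psmf1 had no probe with that symbol and were not analysed here.

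Of the 9 arrays, 8 were alike and sea level replicate 3 stood apart. The 8 arrays had 5881 to 6621 detected probes and median signals of 121 to 159, and their rank correlations over all probes ranged from 0.969 to 0.978. Sea level replicate 3 had 8170 detected probes, a median signal of 204 and rank correlations of 0.642 to 0.660 with the other 8. Comparisons with sea level are therefore given with all 9 arrays and again with the 8 arrays that remain without it. Levels are log2 values of background-corrected, quantile-normalized intensity plus an offset of 16. Differences are those of limma, with their standard errors.

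Sea level replicate 3 also stood apart in the proteasome genes themselves. Relative to the mean of the other 2 sea level arrays, its log2 level was higher in 23 of 33 genes (69.7%, against 50.8% of all tested probes), with a median of 0.20 above. It exceeded that mean by more than 0.5 in 9 of 33 genes (27.3%, against 9.33% of all tested probes). It was more than 0.5 below that mean in none, against 540 of all 6656 tested probes. The lid subunits Psmd11 and Psmd3 were 1.31 and 1.08 higher on that array, and the core subunits Psmb1, Psma2 and Psma7 were 0.84, 0.77 and 0.77 higher. Psmb7 was lowest in this respect, at -0.39. Sea level replicate 3 was the highest of the 9 arrays in 18 of 33 genes (54.5%, against 38.1% of all tested probes) and the lowest in 4 (12.1%, against 37.2%). Probes of like brightness were not compared, and the cause was not tested.

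**Figure D1:**
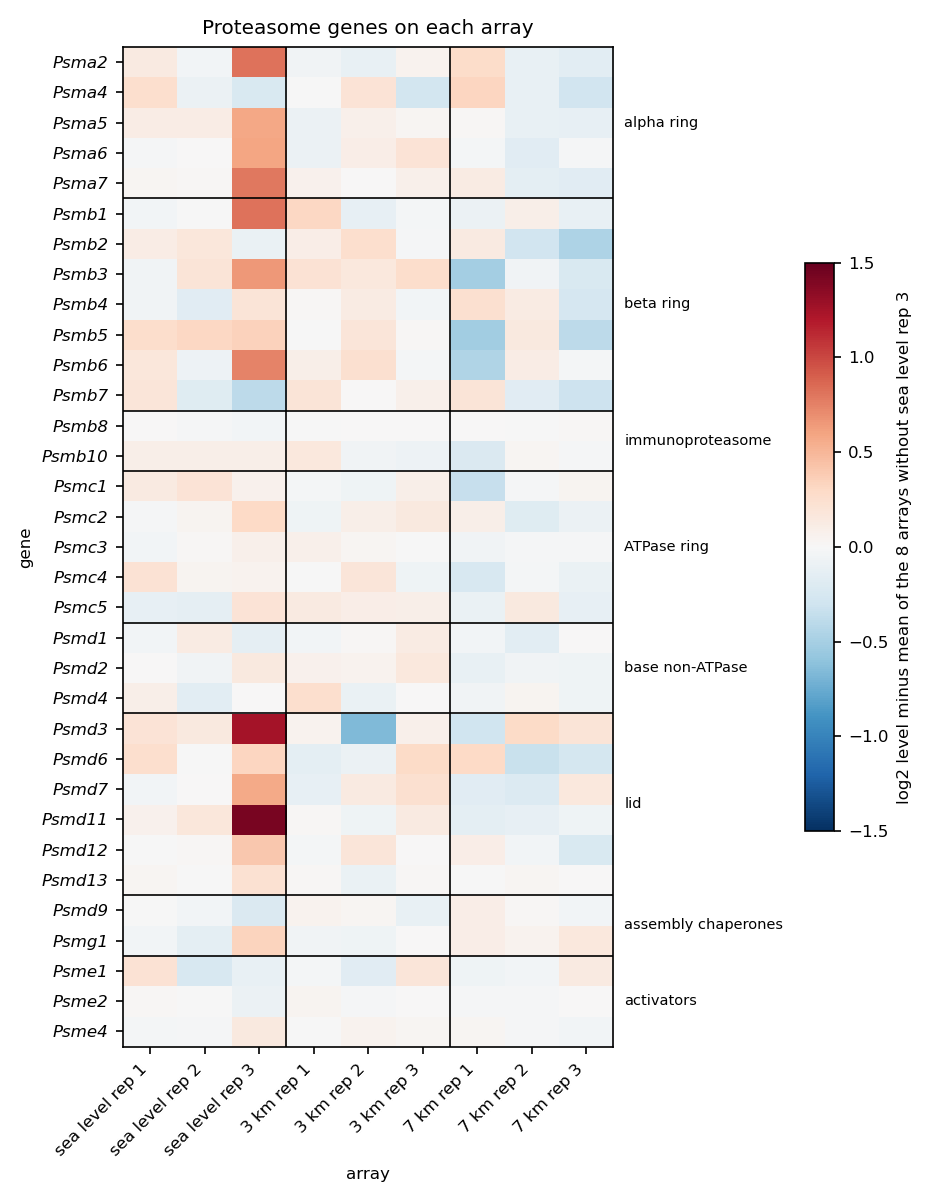
Log2 level of the 33 tested proteasome genes (vertical axis, in order of role) on each of the 9 arrays (horizontal axis), minus the gene's mean over the 8 arrays without sea level replicate 3; red is higher and blue lower. The column of sea level replicate 3 holds the deepest reds, with Psmd11 and Psmd3 highest, while the 8 other columns differ less.

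Proteasome transcripts at 7 km had mostly lower means than at sea level, but by amounts that did not pass the test. With 9 arrays, 26 of the 33 genes had a log2 difference below 0 (52.3% of all tested probes did), with a median of -0.16 against -0.0067 over all probes. Gene differences ranged from -0.66 to 0.11, and the smallest adjusted p in limma was 0.350. None of the 33 genes passed an adjusted p of 0.05 in limma, and 0.12% of all 6656 tested probes did. At an unadjusted p of 0.05, 4 of 33 genes passed, against 11.4% of all tested probes. Without sea level replicate 3, 25 genes were below 0 (50% of all tested probes), the median was -0.059 against -2.3e-05, and none passed, with a smallest adjusted p of 0.182 and 0.308% of all probes passing. At an unadjusted p of 0.05, 5 genes then passed, against 12.5% of all tested probes. The signs were the same with 9 and 8 arrays in 28 of the 33 genes, and the difference was nearer to 0 without that array in 24.

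All 3 samples at 7 km lay below all 3 at sea level in 9 of the 33 genes, and in none did they lie above. Over all tested probes, 12.5% were separated downwards, 12.2% upwards and 24.7% either way. The 9 genes were Psma5 and Psma6 of the alpha ring, Psmb3, Psmb5 and Psmb10 of the beta subunits, Psmc1 and Psmc4 of the ATPase ring, Psmd2 of the base and Psmd11 of the lid. They stay separated without sea level replicate 3 largely by construction, and Psmc5 and Psmg1 are then separated upwards (16.1% of all tested probes downwards, 16.3% upwards and 32.4% either way). At 3 km the arrays of 3 genes lay below all sea level arrays, namely Psma5, Psmb5 and Psmd3, and of none above (10.7% and 8.8% of all tested probes, 19.5% either way). Without sea level replicate 3 there were 4 genes each way, with Psma5, Psmb5, Psmc1 and Psmd3 lower and Psmb4, Psmc5, Psmd2 and Psme4 higher (15.6% and 15% of all tested probes, 30.6% either way).

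The 3 km samples were nearer to sea level. With 9 arrays, 21 of 33 genes were below 0 (50.3% of all tested probes), with a median of -0.064 against -0.00082, and none passed an adjusted p of 0.05 in limma, as for 0% of all tested probes. The smallest adjusted p was 0.533, and no gene passed an unadjusted p of 0.05, against 8.07% of all tested probes. Without sea level replicate 3, 15 genes were below 0 (48.6% of all tested probes), the median was 0.010 against 0.0012, and the sign was the same as with 9 arrays in 19 of 33 genes. None then passed (0% of all tested probes), the smallest adjusted p in limma was 0.415, and 2 genes passed an unadjusted p of 0.05, against 9.48%. The direction of this comparison therefore depended on sea level replicate 3. With that array kept, it also depended on the processing, with a median of 0.029 with array weights and 0.033 in the authors' deposited table.

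Between 7 km and 3 km, which is free of the sea level arrays apart from their share in the estimated spread and in the normalization, 24 of 33 genes were lower at 7 km (50.4% of all tested probes), with a median of -0.093 against -0.00038. With 8 arrays the count was again 24 (50.3% of all tested probes), the median -0.090 against -0.00033, and all 33 signs were the same. None passed in limma with either set, as for 0% of all tested probes, and the smallest adjusted p was 1 with 9 arrays and 0.334 with 8. At an unadjusted p of 0.05, 2 genes passed with 9 arrays (2.7% of all tested probes) and 3 with 8 arrays (8.19%). All 7 km arrays lay below all 3 km arrays in Psmb3, Psmc3, Psmd11 and Psmd2 (7.71% of all tested probes) and above them in Psmg1 (5.93%, and 13.6% either way). With 8 arrays the same 4 and 1 genes were separated, against 7.68% and 5.95% of all tested probes, or 13.6% either way. Under median scaling the count separated downwards was 21 of 33, with 9 and with 8 arrays, against 33.1% and 33.2% of all tested probes. The 3 comparisons share arrays pairwise, so they are not independent of each other.

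**Figure D2:**
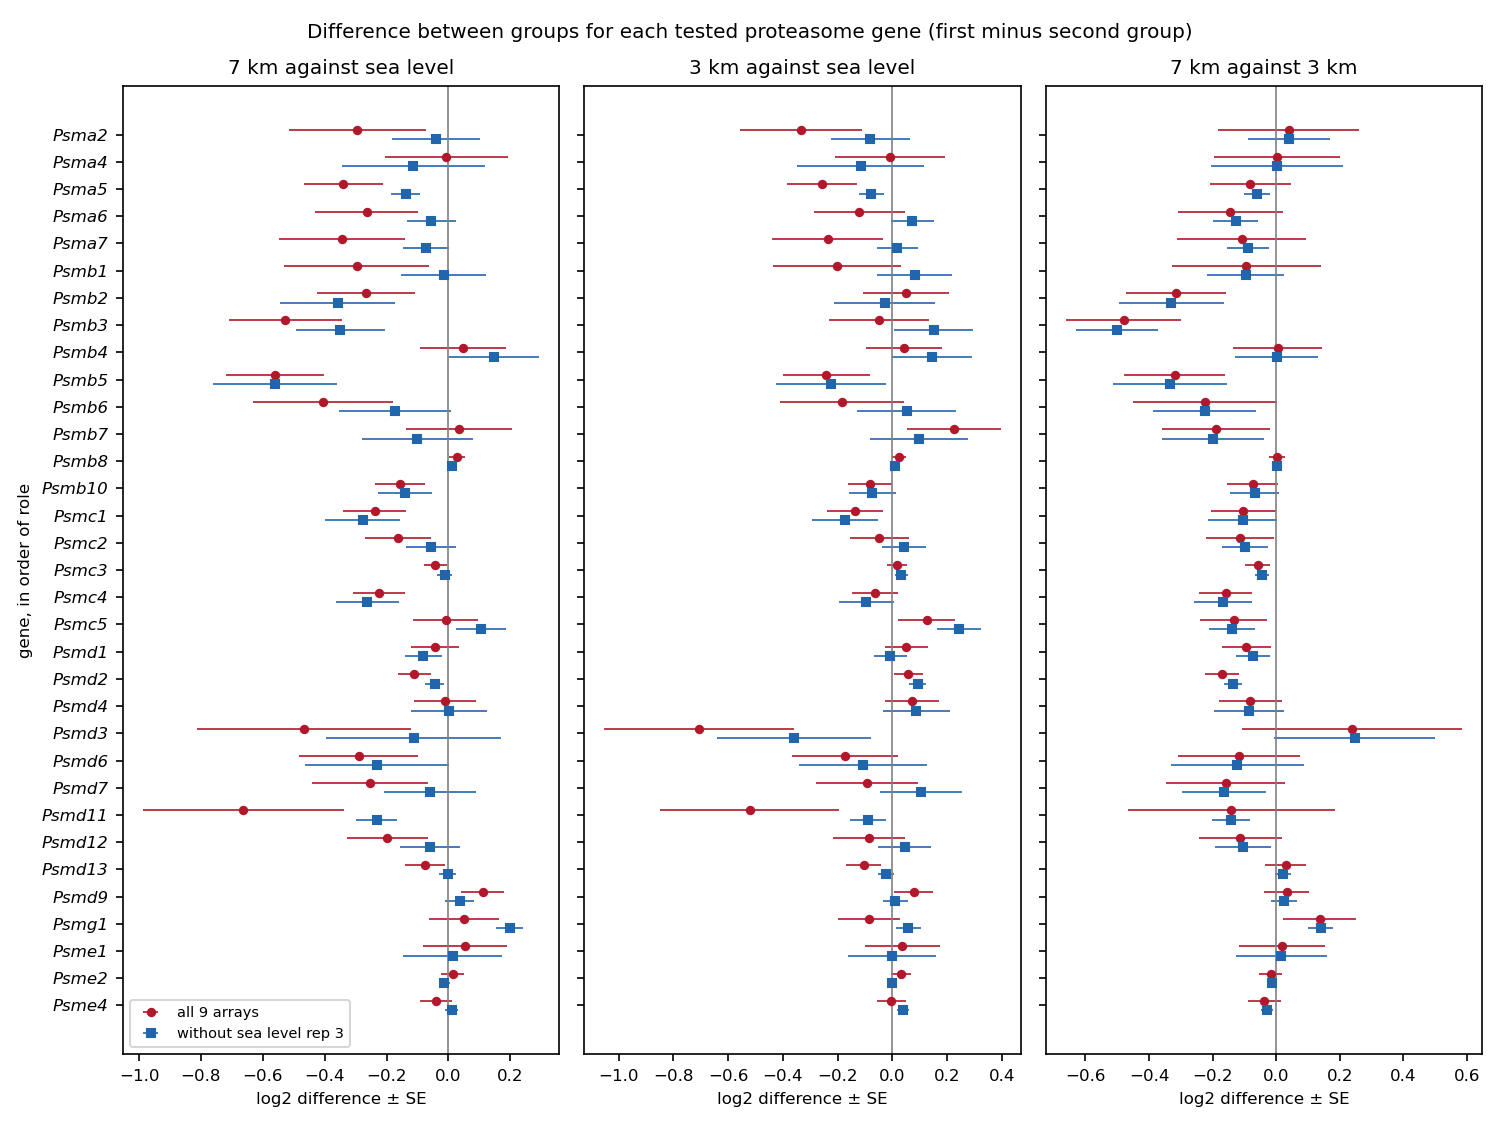
Log2 difference in mean level (horizontal axis, first group minus second) with its standard error for the 33 tested proteasome genes (vertical axis, in order of role), in 3 panels for the 3 comparisons; red circles use 9 arrays and blue squares the 8 arrays without sea level replicate 3. In the panel for 7 km against sea level 26 red circles and 25 blue squares lie below 0, and in the panel for 7 km against 3 km 24 of each do.

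Among the proteolytic subunits, Psmb5, which carries the chymotrypsin-like site, was measured at log2 levels of 10.95, 11.004 and 11.04 at sea level, 10.68, 10.87 and 10.71 at 3 km, and 10.17, 10.84 and 10.30 at 7 km. Every altitude sample lay below every sea level sample, but 7 km replicate 2 lay within the 3 km samples. Its difference of 7 km from sea level was -0.56 ± 0.16 (SE; 95% interval -0.93 to -0.19; adjusted p = 0.350 in limma) with 9 arrays and -0.56 ± 0.20 (adjusted p = 0.343 in limma) with 8. Sea level replicate 3 was close to its group in Psmb5, so this value was nearly the same without it. At 3 km the difference from sea level was -0.24 ± 0.16 with 9 arrays and -0.23 ± 0.20 with 8, and between 7 km and 3 km it was -0.32 ± 0.16 and -0.33 ± 0.18. The size for 7 km against sea level depended on the processing, at -0.34 without background correction, -0.26 in the authors' deposited table and -1.55 under median scaling. Psmb6, with the caspase-like site, was measured at 9.03, 8.79 and 9.61 at sea level, 8.95, 9.10 and 8.84 at 3 km, and 8.41, 8.97 and 8.84 at 7 km. Only sea level replicate 3 and 7 km replicate 1 lay outside the range of the others, and the groups overlapped. The difference of 7 km from sea level was -0.41 ± 0.23 with 9 arrays and -0.17 ± 0.18 with 8. Psmb7, with the trypsin-like site, was measured at 10.35, 9.99 and 9.77 at sea level, 10.36, 10.18 and 10.24 at 3 km, and 10.36, 9.99 and 9.86 at 7 km. The 3 km samples lay in the upper part of the range, the other groups each held high and low samples, and the difference of 7 km from sea level was 0.035 ± 0.17 with 9 arrays and -0.10 ± 0.18 with 8.

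Among the other beta subunits, Psmb3, a structural member of the ring, stood lowest at 7 km. Psmb3 was measured at 9.68, 9.92 and 10.37 at sea level, 9.95, 9.89 and 9.997 at 3 km, and 9.21, 9.67 and 9.50 at 7 km. All 7 km samples were below all others, although 7 km replicate 2 was only just below sea level replicate 1. The difference from 3 km was -0.48 ± 0.18 with 9 arrays and -0.50 ± 0.13 with 8, with adjusted p of 1 and 0.403 in limma. From sea level it was -0.53 ± 0.18 with 9 arrays and -0.35 ± 0.14 with 8, with adjusted p of 0.407 and 0.398 in limma. Psmb2, whose promoter is shown above, was measured at 9.93, 9.98 and 9.72 at sea level, 9.91, 10.07 and 9.80 at 3 km, and 9.96, 9.53 and 9.35 at 7 km. Here 7 km replicates 2 and 3 were low while 7 km replicate 1 lay among the sea level and 3 km samples, and the difference from 3 km was -0.32 ± 0.16. Of the 7 tested beta subunits, 5 were lower at 7 km than at sea level with a median of -0.30, and 6 with a median of -0.17 without sea level replicate 3. Against 3 km, 6 of 7 were lower, with a median of -0.22.

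**Figure D3:**
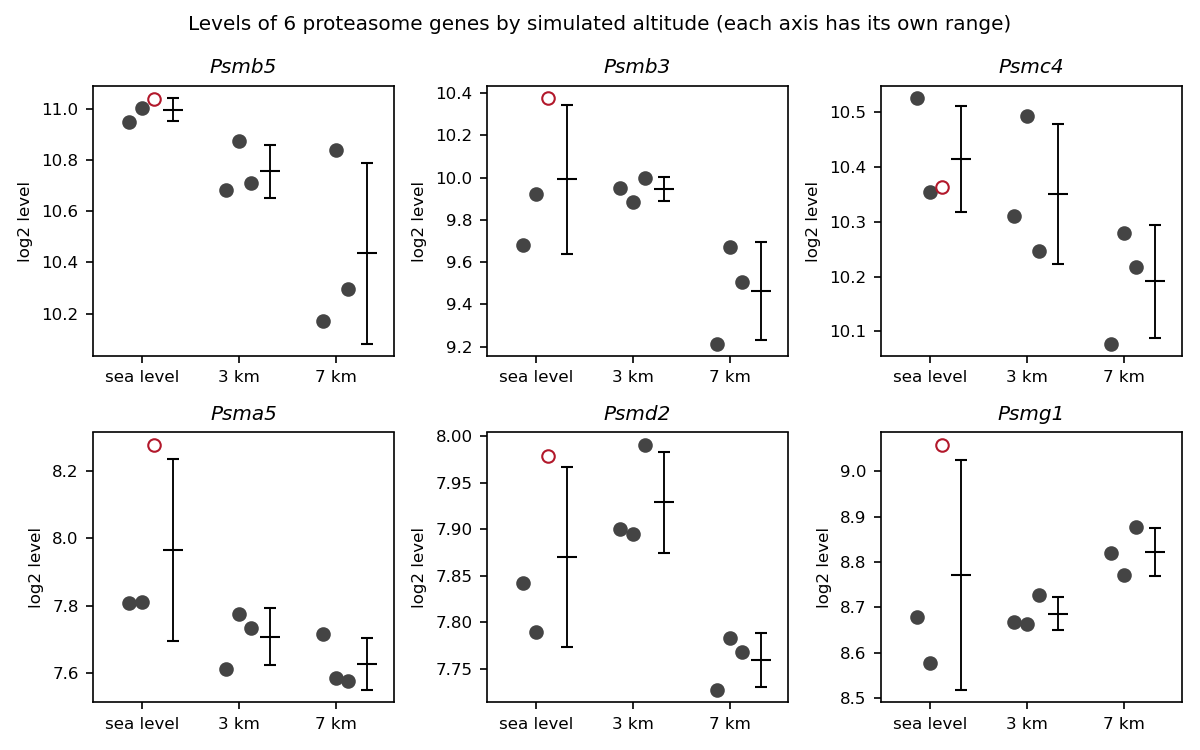
Log2 level (vertical axis, with a range of its own for each gene) of Psmb5, Psmb3, Psmc4, Psma5, Psmd2 and Psmg1 by simulated altitude; points are arrays, the open red circle is sea level replicate 3, and bars are the mean ± SD of 3 arrays. The 7 km arrays lie below all sea level arrays in 5 of the panels, and in Psmg1 they lie above the 3 km arrays while the open circle is highest.

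In the alpha ring, which gates the entry to the barrel, all 5 tested genes were lower at 7 km than at sea level, with a median of -0.30. Without sea level replicate 3 all 5 were still lower, with a median of -0.071. Psma5 was measured at 7.81, 7.81 and 8.28 at sea level, 7.61, 7.78 and 7.73 at 3 km, and 7.72, 7.59 and 7.58 at 7 km. The altitude samples lay below the sea level samples, of which replicate 3 was far above the other 2. The difference of 7 km from sea level was -0.34 ± 0.13 with 9 arrays and -0.14 ± 0.046 with 8, with adjusted p of 0.414 and 0.304 in limma. At 3 km it was -0.26 ± 0.13 and -0.077 ± 0.046. For Psma2 and Psma7 the difference of 7 km from sea level was -0.30 ± 0.22 and -0.34 ± 0.20 with 9 arrays, and -0.040 ± 0.14 and -0.071 ± 0.074 with 8.

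The ATPase ring unfolds the substrate, and its 5 tested genes were all lower at 7 km than at sea level (median -0.16), 4 of them without sea level replicate 3 (median -0.055). Psmc4 was measured at 10.53, 10.35 and 10.36 at sea level, 10.31, 10.49 and 10.25 at 3 km, and 10.08, 10.28 and 10.22 at 7 km. The 7 km samples lay below the sea level samples, and the 3 km samples overlapped both. Its difference of 7 km from sea level was -0.22 ± 0.084 with 9 arrays and -0.26 ± 0.10 with 8, with adjusted p of 0.414 and 0.379 in limma. Psmc1 was measured at 12.15, 12.22 and 12.08 at sea level, 11.99, 11.96 and 12.10 at 3 km, and 11.67, 12.01 and 12.06 at 7 km. The 7 km samples lay below the sea level samples, closely so but for 7 km replicate 1, and the difference was -0.24 ± 0.10 with 9 arrays and -0.28 ± 0.12 with 8. Psmc5 was measured at 8.91, 8.90 and 9.23 at sea level, 9.16, 9.13 and 9.12 at 3 km, and 8.93, 9.17 and 8.91 at 7 km. Without sea level replicate 3 the 3 km samples lay above sea level, by 0.24 ± 0.081 (adjusted p = 0.415 in limma). With it the groups overlapped, and the difference was 0.12 ± 0.11. Psmc3 varied little, with 7.65, 7.71 and 7.76 at sea level, 7.77, 7.72 and 7.69 at 3 km, and 7.64, 7.68 and 7.68 at 7 km. Its 7 km samples lay just below its 3 km samples, by -0.058 ± 0.038 with 9 arrays and -0.044 ± 0.022 with 8.

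Among the other subunits of the base, Psmd2, a large scaffold subunit that docks ubiquitin shuttles, was measured at 7.84, 7.79 and 7.98 at sea level, 7.90, 7.89 and 7.99 at 3 km, and 7.73, 7.78 and 7.77 at 7 km. The 7 km samples were the lowest 3 of the 9, and the 3 km samples lay above the sea level samples but for replicate 3. The difference of 7 km from 3 km was -0.17 ± 0.054 with 9 arrays and -0.14 ± 0.027 with 8, with adjusted p of 1 and 0.334 in limma. From sea level, 7 km differed by -0.11 ± 0.054 with 9 arrays and -0.044 ± 0.030 with 8. The other 2 base genes, Psmd1 and the ubiquitin receptor gene Psmd4, were also lower at 7 km than at 3 km, and the median of the 3 was -0.093.

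All 6 tested lid genes were lower at 7 km than at sea level, with a median of -0.27, and all 6 without sea level replicate 3, with a median of -0.086. Psmd11, a scaffold of the lid, was measured at 8.78, 8.89 and 10.14 at sea level, 8.74, 8.65 and 8.86 at 3 km, and 8.57, 8.60 and 8.65 at 7 km. The 7 km samples were the lowest 3, and sea level replicate 3 was far above every other sample. The difference of 7 km from sea level was -0.66 ± 0.33 with 9 arrays and -0.23 ± 0.066 with 8, with adjusted p of 0.414 and 0.250 in limma, so the estimate was far nearer to 0 without that array. Psmd3, another lid scaffold, was measured at 9.79, 9.73 and 10.83 at sea level, 9.64, 8.92 and 9.67 at 3 km, and 9.29, 9.87 and 9.78 at 7 km. The 3 km samples lay below sea level, with 3 km replicate 2 the lowest of all, and the difference was -0.71 ± 0.35 with 9 arrays and -0.36 ± 0.28 with 8. At 7 km it was -0.47 ± 0.35 and -0.11 ± 0.28. Psmd13 was measured at 7.69, 7.65 and 7.88 at sea level, 7.67, 7.56 and 7.67 at 3 km, and 7.65, 7.69 and 7.66 at 7 km. Apart from sea level replicate 3 these samples lay close together, and the difference of 3 km from sea level was -0.10 ± 0.064 with 9 arrays and -0.025 ± 0.029 with 8.

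Neither of the 2 tested assembly chaperones had a mean at 7 km below sea level or below 3 km. Psmg1, which pairs with Psmg2 to build the alpha ring, was measured at 8.68, 8.58 and 9.06 at sea level, 8.67, 8.66 and 8.73 at 3 km, and 8.82, 8.77 and 8.88 at 7 km. The 7 km samples lay above all others except sea level replicate 3, which was the highest. Without that array the difference of 7 km from sea level was 0.20 ± 0.044 (adjusted p = 0.182 in limma, the smallest of the 33 genes), against 0.051 ± 0.11 (adjusted p = 0.779 in limma) with it. From 3 km it was 0.14 ± 0.11 with 9 arrays and 0.14 ± 0.040 with 8, with adjusted p of 1 and 0.453 in limma. Psmd9, a chaperone of the ATPase ring, was the other tested gene of the group, and the median of the 2 differences of 7 km from 3 km was 0.085.

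Of the immunoproteasome subunits, only Psmb10 was clearly above background in this cortex. Psmb8 was measured at 7.44, 7.42 and 7.40 at sea level, 7.44, 7.45 and 7.45 at 3 km, and 7.45, 7.43 and 7.46 at 7 km, with detection p-values of 0.0182 to 0.0533. These values lie next to the background, and its difference of 7 km from sea level was 0.027 ± 0.026 with 9 arrays and 0.012 ± 0.014 with 8. Psmb9 was not above background, at 7.30, 7.28 and 7.31, then 7.29, 7.29 and 7.30, then 7.29, 7.28 and 7.29 in the same order of groups. Psmb10 was detected on all arrays, at 8.30, 8.30 and 8.30 at sea level, 8.37, 8.16 and 8.14 at 3 km, and 8.00, 8.24 and 8.20 at 7 km. Its 7 km samples lay below its sea level samples, by -0.16 ± 0.081 with 9 arrays and -0.14 ± 0.086 with 8. Psmb8 and Psmb9 lie 11902 bases apart on chromosome 20 of GRCr8, with 1 protein-coding gene between them. Among 8 tested interferon-response genes that usually accompany these subunits (of 20 with a probe), 3 were lower and 5 higher at 7 km than at sea level, with a median of 0.034, and 2 were lower and 6 higher, with a median of 0.021, without sea level replicate 3. None passed in limma. The antiviral gene Mx1 had a difference of 0.77 ± 0.38 with 9 arrays and 0.30 ± 0.18 with 8. It was measured at 8.78, 8.94 and 7.41 at sea level, so the larger value depended on the low replicate 3. RT1-Da, also among the 8 genes, was lower at 7 km than at sea level, by -0.12 ± 0.050 with 9 arrays and -0.061 ± 0.033 with 8.

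Activators open the barrel independently of ATP. Psme1 and Psme2, neighbours on chromosome 15 at a distance of 6602 bases with no protein-coding gene between, encode the interferon-inducible activator. Of the 3 tested activator genes 1 was lower at 7 km than at sea level, and their median was 0.014 with 9 arrays and 0.011 with 8. Psme4, which encodes a large cap found on nuclear proteasomes, was measured at 7.47, 7.48 and 7.64 at sea level, 7.49, 7.55 and 7.53 at 3 km, and 7.52, 7.48 and 7.46 at 7 km. Without sea level replicate 3 its 3 km samples lay just above sea level, by 0.038 ± 0.021 (adjusted p = 0.631 in limma), and with it the difference was -0.0038 ± 0.052.

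The spread between samples differed widely among the genes. Over the 8 arrays, the SD of the log2 level was lowest in Psmb8 (0.010), Psme2 (0.016) and Psme4 (0.025). These genes lay near the background, at 7.40 to 7.46, 7.49 to 7.61 and 7.46 to 7.64 over the 9 arrays. A small SD there cannot be told apart from the narrow range of dim probes. The SD was highest in Psmd3 (0.33), Psmb5 (0.32), Psmb3 (0.28), Psmb2 (0.26) and Psmd6 (0.26). A part of it lay within the 7 km group, where replicate 1 diverged from the other 2 samples in opposite directions. At a limit of 0.3, chosen after the values were seen, it was above their mean in 6 of 33 genes (18.2%, against 4.07% of all tested probes), from 0.31 in Psmb4 to 0.59 in Psmd6. It was below in 5 genes (15.2%, against 4.52%), at -0.53 in Psmd3, -0.49 in Psmb6, -0.39 in Psmb5, -0.37 in Psmb3 and -0.36 in Psmc1. The catalytic genes Psmb5 and Psmb6 were thus low and Psmb7 high (0.43) in the same sample. Probes of like brightness were not compared, and the cause was not tested.

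Other genes of the pathway gave no passing difference either. Of 10 partners and regulators of the proteasome with a probe, 8 were tested, and 6 were lower at 7 km than at sea level, with a median of -0.059. With 8 arrays 7 were tested and 6 were lower, with a median of -0.0052. Akirin2, which carries proteasomes into the nucleus, was measured at 7.60, 7.95 and 7.69 at sea level, 7.53, 7.57 and 7.59 at 3 km, and 8.02, 7.63 and 8.18 at 7 km. Its 7 km samples lay above its 3 km samples, by 0.38 ± 0.15 with 9 arrays and 0.30 ± 0.13 with 8, with adjusted p of 1 and 0.603 in limma. Usp14, a deubiquitinase bound to the base, was measured at 11.06, 11.15 and 11.44 at sea level, 10.67, 11.04 and 10.76 at 3 km, and 11.16, 10.74 and 11.05 at 7 km. Its 3 km samples lay below sea level, by -0.39 ± 0.15 with 9 arrays and -0.29 ± 0.16 with 8, and its 7 km samples overlapped both. Of 9 genes that bring ubiquitinated proteins to the proteasome, 6 were tested, and 5 were lower at 7 km than at sea level, with a median of -0.049, but only 3, with a median of 0.0011, without sea level replicate 3. Vcp, the segregase that extracts them, was measured at 10.29, 10.39 and 11.93 at sea level, 10.66, 10.28 and 10.11 at 3 km, and 10.19, 10.51 and 10.56 at 7 km. As with Psmd11, sea level replicate 3 was far above every other sample, and the difference of 7 km from sea level was -0.45 ± 0.42 with it and 0.088 ± 0.19 without.

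Some summed marker levels of cortical cell types were separated between groups and others overlapped, and no single tested marker passed in limma. The summed level of 8 excitatory neuron markers, all of them detected, was 23356 to 24169 at sea level, 21974 to 24069 at 3 km and 20397 to 23439 at 7 km. For oligodendrocytes, 7 of 9 markers were detected on at least 3 arrays and Mag on none. The summed level of the 9 was 8341 to 9190 at sea level, 6429 to 8598 at 3 km and 3399 to 5601 at 7 km, with all 7 tested markers lower at 7 km than at sea level. Astrocyte markers (6 of 7 detected on at least 3 arrays) summed to 14925 to 16465 at sea level, 14463 to 15719 at 3 km and 15562 to 15706 at 7 km. Interneuron markers (5 of 6) summed to 4022 to 5105, 4144 to 5409 and 3711 to 5364 in the same order, and microglia and macrophage markers (4 of 8, with Cx3cr1, Itgam and Tyrobp on no array) to 1529 to 1728, 1638 to 1703 and 1571 to 1664. The groups overlapped in these 3 sums and in that of the excitatory neurons. Of 5 endothelial markers 3 were detected on at least 3 arrays and Flt1 and Tek on none, and the 5 summed to 1985 to 2366 at sea level and 2936 to 5015 at altitude. Of 5 choroid plexus and ependyma markers, Kcnj13 and Ttr were detected on at least 3 arrays, Kl on 1 or 2, and Aqp1 and Folr1 on none. The sum of the 5 set 1 array apart, at 4164 on sea level replicate 3 and 838 to 889 on the other 8 arrays. Of the 2 tested with 9 arrays, 1 was lower and 1 higher at 7 km than at sea level. The sum therefore does not show the 5 markers moving together. Oligodendrocyte precursor markers (4 of 5 detected on at least 3 arrays, Olig2 on none) summed to 2496 to 3219 at sea level, 2463 to 3357 at 3 km and 2000 to 2464 at 7 km. Of the 4 tested, 3 were lower and 1 higher at 7 km than at sea level, with a median of -0.022 with 9 arrays. Against 3 km, 2 were lower and 2 higher. This sum does not show the precursor markers moving together either. The sums of red cell, leukocyte, and pericyte and smooth muscle markers overlapped between the groups. No tested marker passed an adjusted p of 0.05 in limma in any comparison, with 9 or 8 arrays (0% to 0.308% of all tested probes). The part of these shifts in the proteasome values was not tested. In tissue RNA, fewer cells of a type and less RNA per cell cannot be told apart.

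The median difference of the proteasome genes depended on the processing for sea level and less so for 7 km against 3 km. Under every setting tried, the median at 7 km was below 0 against both other groups, and no proteasome gene passed an adjusted p of 0.05 in limma. Of all tested probes, 0 to 176 passed, depending on the setting and the comparison. Against sea level at 3 km the median changed sign between settings, as it did without sea level replicate 3.

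**Figure D4:**
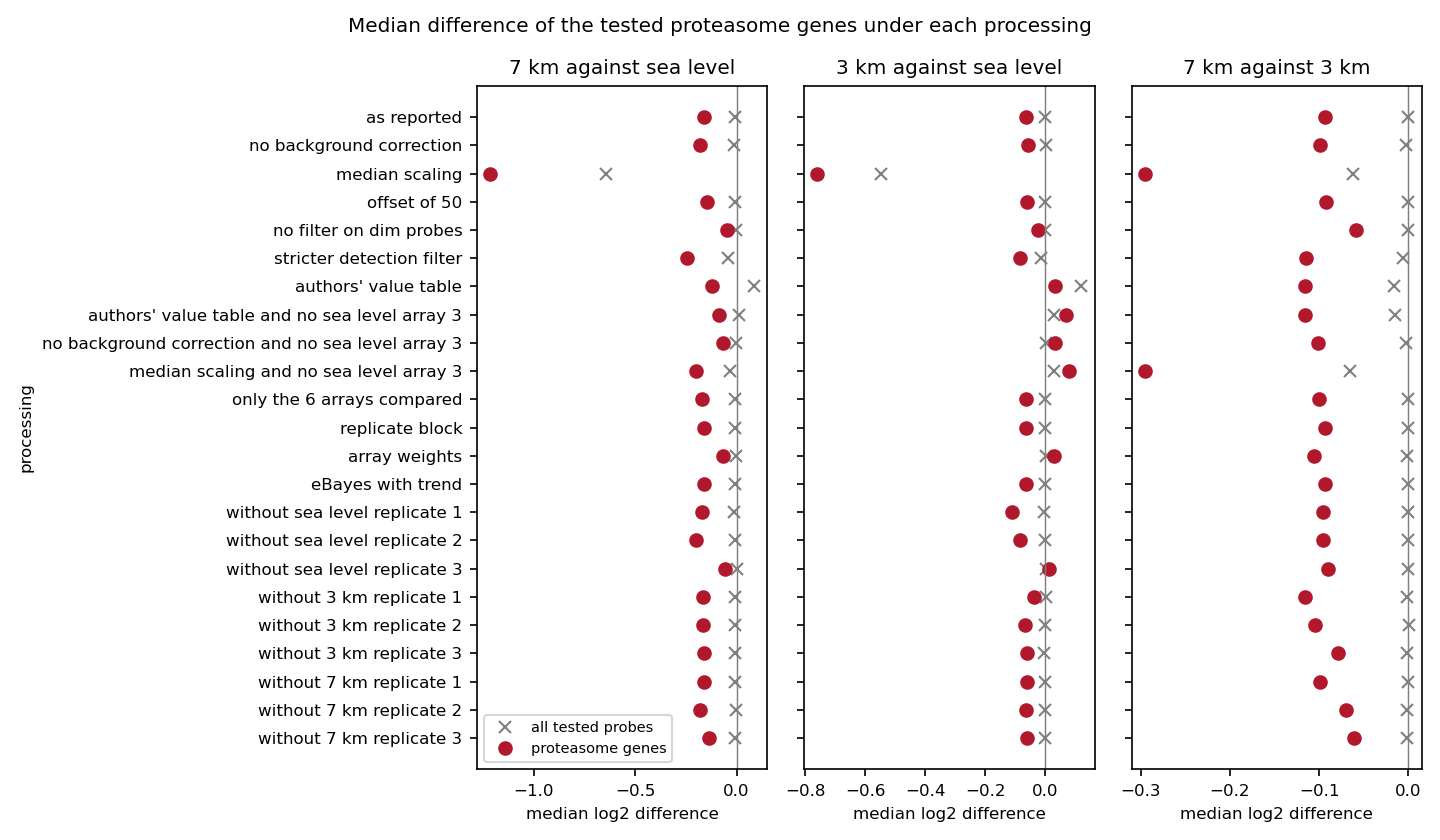
Median log2 difference (horizontal axis) of the tested proteasome genes (red dots) and of all tested probes (grey crosses) under each processing (vertical axis), in 3 panels for the 3 comparisons. In the panels for 7 km all red dots lie below 0, and under median scaling of all 9 arrays the crosses move left together with the dots.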

How the data were processed

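Biotin-labelled RNA of rat brain cortex was measured on 9 Illumina bead arrays. The authors deposited a non-normalized table, used here, with an intensity and a detection p-value per probe and array, per the file headers. Their deposited value table of 21675 probes, also intensity, served as an alternative; its normalization was not given in the sources used here. Gene symbols came from the platform annotation and positions and promoters from RefSeq (GRCr8). Intensities were background-corrected (normexp with the detection p-values, limma 3.58.1 in R 4.3.3), given an offset of 16, quantile-normalized between arrays and taken to log2. The probes kept had a detection p-value under 0.05 in 3 arrays or more (6656 with 9 arrays, 6499 with 8). All 3 groups were fitted together with lmFit and eBayes, and p-values were adjusted by Benjamini-Hochberg over all kept probes. The fit was tested on data simulated with the spread of the 8 arrays without sea level replicate 3. The test required planted differences to be returned near their size on average. How many of them passed the threshold is not given here, so it does not tell how often real differences would pass. That test does not cover a series with an outlying array. The number of arrays limits the precision. Every proteasome gene had 1 probe. The members and the gene lists were chosen with earlier results of these data known. Genes given with values on every array were the catalytic and inducible subunits and, per comparison, with 9 and with 8 arrays, the 5 members with the smallest p; the pathway genes shown were chosen after their values were seen. Alternatives were the background correction, the scaling, the offset, the filter, the authors' table, the arrays fitted, the replicate number as a block, array weights, a trend in eBayes, and each array left out. Deviations of same-numbered samples from their group means had correlations of 0.013 to 0.30, over 0.1 in 3 of 9 pairs. Differently numbered pairs were not compared, so these values do not decide whether the numbers pair the samples. The main fit treated the samples as unpaired.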

Additional observations from a re-analysis of the deposited data

How the results depend on the processing

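No proteasome gene passed an adjusted p of 0.05 in limma in any of the 3 comparisons under the 22 alternatives. Over all tested probes, 0 to 176 passed for 7 km against sea level, 0 to 120 for 3 km against sea level and 0 to 2 for 7 km against 3 km. The smallest adjusted p values in limma were 0.0647 for Psmg1 with array weights and 0.0726 for Psmb5 without 7 km replicate 2. Both were for 7 km against sea level. Psmg1, unlike Psmb5, had a higher mean at 7 km with 9 and with 8 arrays. Leaving out each array in turn gave medians of -0.20 to -0.059 for 7 km against sea level, -0.11 to 0.010 for 3 km against sea level and -0.12 to -0.061 for 7 km against 3 km, where -0.059 and 0.010 came without sea level replicate 3. Median scaling in place of quantile normalization gave medians of -1.21, -0.76 and -0.30 in the same order, but the median over all tested probes was then -0.64, -0.55 and -0.062; relative to that shift 29, 27 and 30 of the 33 genes were lower. Median scaling without sea level replicate 3 gave -0.30 for 7 km against 3 km and 0.079 for 3 km against sea level, and no filter on dim probes gave -0.058 for 7 km against 3 km and -0.045 for 7 km against sea level, where array weights gave -0.068. For 3 km against sea level the median was also above 0 with array weights (0.029), without background correction and sea level replicate 3 (0.033) and in the authors' deposited table (0.033, where all tested probes had 0.12, and 0.068 without sea level replicate 3). Psmb5, Psmb3 and Psmc4 kept their sign but not their size for 7 km against sea level, with ranges over the alternatives of -1.55 to -0.26 for Psmb5, -1.68 to -0.19 for Psmb3 and -1.36 to -0.054 for Psmc4, the lowest under median scaling. Counts of separated genes also moved with 1 array: without 7 km replicate 1, 15 genes were separated downwards from sea level and 12 from 3 km (18.9% and 12.7% of all tested probes). The 4 genes of 7 km against 3 km became 8 without 7 km replicate 2 and 8 without 3 km replicate 1 (13.2% and 14.9%), and the 3 genes of 3 km against sea level became 7 without 3 km replicate 3 and 5 without sea level replicate 2 (16.4% and 15.8%). The sign of Psmb7 for 7 km against sea level turned under median scaling (-1.18, or -0.44 without sea level replicate 3), with array weights (-0.068), without sea level replicate 3 (-0.10), without 7 km replicate 1 (-0.11, in a range of -0.11 to 0.19 over the arrays left out), and without sea level replicate 3 in the authors' deposited table (-0.034) or without background correction (-0.054). Psmb8 for 7 km against sea level turned to -0.14 under median scaling, where the median over all tested probes was -0.64. Under median scaling without sea level replicate 3, Psmd13 and Psmd11 turned to 0.0023 and 0.032 for 3 km against sea level. The median over all tested probes was 0.028 there. Relative to these medians Psmb8 was still higher and Psmd13 still lower. The cause was not tested. With the replicate number as a block the medians were -0.16, -0.064 and -0.093 and no proteasome gene passed, while the calls over all probes for 7 km against sea level went from 8 to 0. Choosing another probe per gene gave no value, since every gene had 1. Precision is limited by 3 arrays a group, the 8 members undetected on every array have no measurement, and Psmb8 lies next to the background.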
